A study of Mus musculus with 4 samples.

Results

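The genes *Spp1*, *Ibsp*, *Itgav*, *Itgb3*, *Itgb5* and *Cd44* encode osteopontin, bone sialoprotein and cell surface receptors that bind them, and these 6 of the 53703 features counted were followed through the cell types of the bone metaphysis of mice that lack *Lats2* in endothelial cells. The genes were taken by symbol, with earlier results of these data in view, so their differences between genotypes describe these libraries and are not independent evidence. Barcodes were chosen by at least 1000 UMIs (counted RNA molecules) and 800 detected genes, and cell types by a score on fixed marker genes of that type. The score is the mean over markers of their share of the barcode's UMIs, each scaled to the marker's highest barcodes and capped. The genotype comparison addressed the response of the cells around the vessels to the endothelial deletion, with mural cells set beside osteoblasts and hypertrophic chondrocytes.

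There were 4 single-cell RNA-seq libraries, 2 from Lats2iECKO mutants and 2 from controls, of mice 12 weeks old in the C57/BL6 background. Mutants carried *Lats2* lox/lox alleles, the Cdh5(PAC)-CreERT2 transgene, which drives tamoxifen-inducible Cre in endothelial cells, and the mT/nG reporter. Controls were Cre-negative littermates that received tamoxifen as well, although their treatment label reads untreated. The study as a whole used mice of both sexes. Cells were taken from the metaphysis of the long hindlimb bones and were depleted of lineage-marked, CD45+ and CD117+ cells, which removes most blood cells. The libraries of a genotype were biological replicates per the study's text. Whether a library held 1 animal or several is not given in the sources used here.

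Osteopontin and bone sialoprotein belong to the SIBLING family of acidic, phosphorylated glycoproteins, which are secreted into mineralizing matrix, bind calcium and carry an RGD motif recognised by integrins. Integrin αv (*Itgav*) pairs with β3 (*Itgb3*) or β5 (*Itgb5*) to bind that motif, and CD44 is a hyaluronan receptor that also binds osteopontin. In bone, osteoblasts, osteocytes and late hypertrophic chondrocytes make both ligands, and osteopontin is also made by stromal, smooth muscle and myeloid cells.

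The libraries held 69636600 and 78953446 UMIs in mutants and 83453507 and 85899079 in controls, and 27707 barcodes passed, of which 21723 received a cell type. Libraries shared between 7 and 22 barcodes, at most 0.29% of the smaller library. No doublet caller was run, and barcodes mixing markers of several types were left without a type. In endothelial cells the *Cre-ERT2* transgene stood at 54.8 and 49.4 CPM (UMIs per 1000000 UMIs of all cells of the type in a library) in mutants against 0.636 and 0.803 CPM in controls, and *Lats2* at 92.1 and 97.1 against 128 and 117 CPM. *Lats2* was thus lower in both mutant libraries by the 3′ count, which covers the whole gene and does not measure the deleted exons. Cells that express osteoclast markers were not found by the gate.

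All 6 genes are placed here on GRCm39. *Spp1* (ENSMUSG00000029304) spans chr5:104582165-104589235 and *Ibsp* (ENSMUSG00000029306) chr5:104447037-104459338, both on the plus strand of chromosome 5. *Itgav* spans chr2:83554403-83637260, *Itgb3* chr11:104498826-104561302, *Itgb5* chr16:33649988-33771137, and *Cd44* chr2:102641486-102732010 on the minus strand. The 250 bases before the RefSeq starts of 5 of the 6 genes, 6 windows in all, were searched on both strands for the RUNX letters AACCACA, the TEAD letters GGAATG and the AP-1 letters TGANTCA, because RUNX2 is the master factor of osteoblasts and LATS kinases restrain the co-activators of TEAD. The search found 1 match, of the RUNX letters in the first *Spp1* window, 129 bases before the RefSeq start (RefSeq window table built on GRCm38.p6, placed on GRCm39 by exact match).
It is shown, plus strand, with the match in capitals.
Spp1, chr5:104582837-104582866: tttttttttttAACCACAaaaccagaggag
This stretch lies inside the GENCODE span of *Spp1* given above, which begins upstream of this RefSeq start. Of 32851 such windows, 4.4% held the RUNX letters, 12.6% the TEAD letters and 6.75% the AP-1 letters, so the match is a description and not a mapped site.

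Among the 10 cell types tested, osteopontin had its highest level in metaphyseal bone marrow stromal cells (BMSCs), the osteogenic stroma under the growth plate. *Spp1* stood there at 16112 and 13954 CPM in controls and at 17557 and 18217 CPM in mutants. In controls it was next highest in hypertrophic chondrocytes (7601 ± 1996 CPM, SD, n = 2) and in fibroblasts (4491 and 5745 CPM). It was 2867 ± 8.49 CPM in diaphyseal BMSCs, 1489 ± 101 CPM in osteoblasts and 1313 ± 239 CPM in other chondrocytes. Hypertrophic chondrocytes and fibroblasts were apart by less than the spread between the 2 hypertrophic libraries, and the ranges of osteoblasts and other chondrocytes met. Control mural cells, endothelial cells, leukocytes and erythroid cells formed the low end, with every library between 60.6 and 193 CPM and overlapping ranges.

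The other members had their own order across cell types, given here for controls as mean ± SD over 2 libraries. *Ibsp* was highest in hypertrophic chondrocytes (8815 ± 661 CPM), followed by diaphyseal BMSCs (2790.3 ± 62.6 CPM), osteoblasts (2770.4 ± 197 CPM) and metaphyseal BMSCs (2092 ± 371 CPM), of which the first pair differed by less than its spread. It was 857 ± 70.2 CPM in other chondrocytes, 352 ± 17.0 CPM in fibroblasts, and between 41.8 and 299 CPM in every control library of endothelial, mural, erythroid and leukocyte cells, which overlapped. Bone sialoprotein thus lay in skeletal cells, with its top in a different type than osteopontin.

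The receptor subunits were spread otherwise. *Itgav* was highest in diaphyseal BMSCs (186 ± 2.62 CPM) and metaphyseal BMSCs (154 ± 8.45 CPM), and lay between 55.0 and 93.2 CPM in every control library of hypertrophic chondrocytes, fibroblasts, endothelial cells, other chondrocytes, mural cells and osteoblasts. *Itgb5* was highest in fibroblasts (216 ± 11.5 CPM), then in metaphyseal BMSCs (172 ± 9.66 CPM) and mural cells (142 ± 1.80 CPM), and lowest among skeletal cells in osteoblasts (28.9 ± 0.964 CPM). Control mural cells were therefore among the upper types for the β5 subunit and, with osteoblasts, among the lower ones for αv. *Itgb3* was scarce, at 83.6 ± 21.4 CPM in endothelial cells, which was 21.9 ± 16.0 CPM after further barcode filters, 44.8 ± 33.2 CPM in leukocytes, 36.9 ± 3.42 CPM in metaphyseal BMSCs and 8.61 ± 1.76 CPM in mural cells. The leukocyte value does not hold for most of these cells. Of 286 leukocyte barcodes 261 lay in cluster 24 of the unsupervised clusters given below, which stood at 6.62 CPM of *Itgb3* over all its barcodes of both genotypes. *Cd44* was highest in fibroblasts (206 ± 25.7 CPM) and leukocytes (84.4 ± 6.06 CPM) and lowest in hypertrophic (20.5 ± 1.48 CPM) and other chondrocytes (19.1 ± 1.83 CPM), which did not differ beyond their spread. With further barcode filters endothelial cells were lower still, at 7.52 and 13.6 CPM of *Cd44* in the 2 control libraries.

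**Figure D1:**
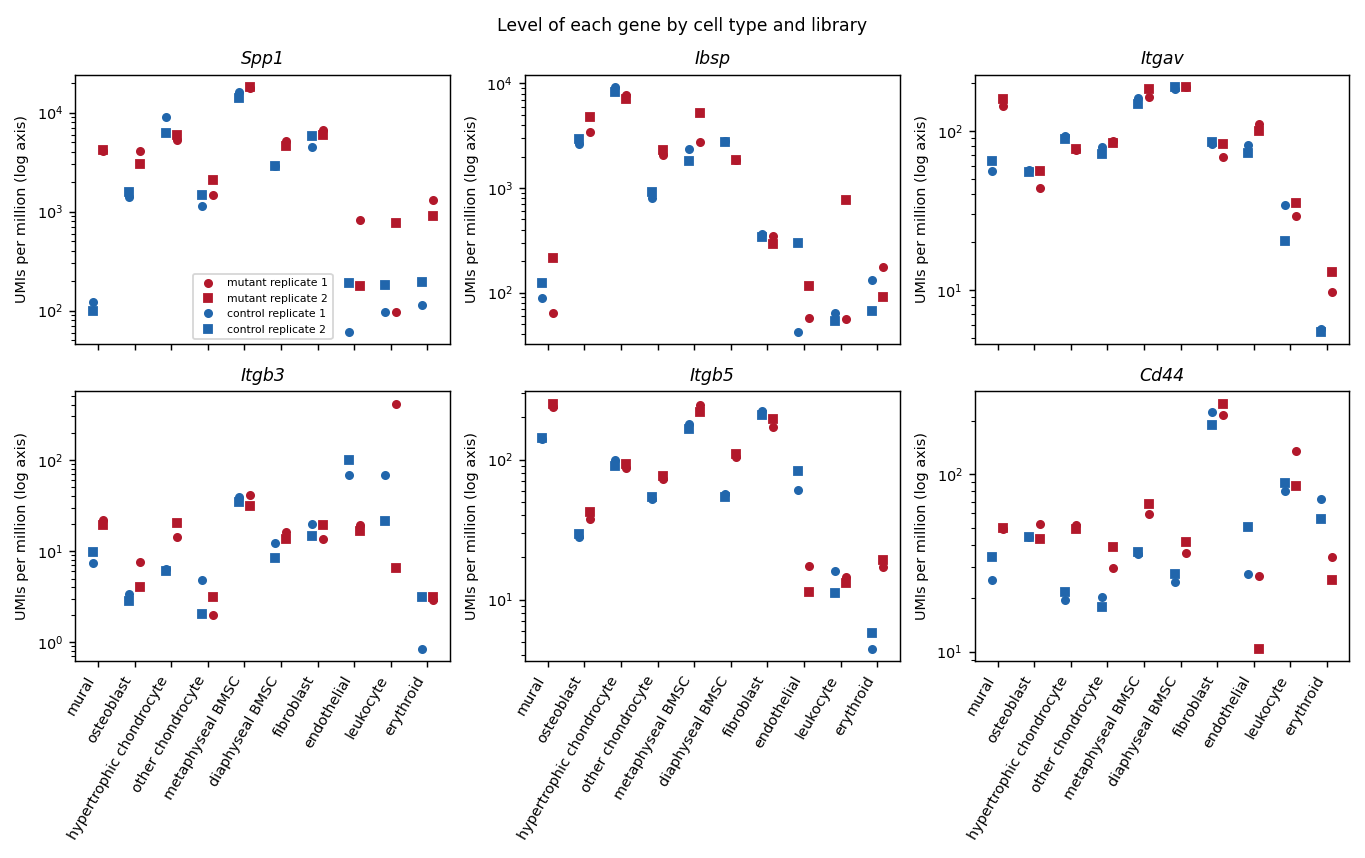
Levels of the 6 genes in CPM (log axis) in 10 cell types, 1 panel per gene. Each point is a library, mutants in red and controls in blue; *Spp1* in mural cells sits at 4074 and 4237 in mutants against 121 and 99.7 in controls.

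Mural cells, the smooth muscle cells and pericytes around vessels, showed the largest genotype difference of *Spp1* among the 10 cell types tested. The level was 4074 and 4237 CPM in mutants and 121 and 99.7 CPM in controls. Both mutant libraries lay far above both control libraries, with means of 4156 ± 115 and 110.3 ± 15.02 CPM (SD, n = 2), a ratio of 37.7. The fitted log2 fold change was 5.27 ± 0.10 (SE), with an adjusted p of 5.8e-19 by edgeR's quasi-likelihood test. The gate held 996 mutant and 590 control mural barcodes. All 12 mural markers stood at 10 CPM or more in every library, but their summed level was lower in mutants, at 13564 and 13823 against 22931 and 23957 CPM.

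Receptor subunits rose in mural cells as well. *Itgav* stood at 143 and 159 CPM in mutants against 55.9 and 64.9 CPM in controls, a log2 fold change of 1.35 ± 0.12 (adjusted p 1.4e-08). *Itgb5* stood at 239 and 251 against 141 and 144 CPM, a log2 fold change of 0.81 ± 0.096 (adjusted p 6.6e-07). For neither gene did the genotypes overlap. All 3 members that passed the filter, *Spp1*, *Itgav* and *Itgb5*, were called higher, against a background of 23.7% of genes called higher and 24.4% called lower in mural cells. *Ibsp*, *Itgb3* and *Cd44* were below the filter, which asks for a count in 20% of cells. *Ibsp* levels overlapped between genotypes, at 64.0 and 212 CPM in mutants and 87.8 and 123 CPM in controls. *Itgb3* (22.1 and 19.4 against 7.37 and 9.85 CPM) and *Cd44* (49.1 and 49.8 against 25.2 and 34.2 CPM) were higher in both mutant libraries. A fit of all genes without the filter called both higher, at log2 1.34 ± 0.28 (adjusted p 2.4e-05) for *Itgb3* and 0.82 ± 0.17 (adjusted p 4.3e-05) for *Cd44*. That fit also called *Ibsp*, at 0.49 ± 0.12 (adjusted p 6.6e-04), although its libraries overlapped. Of 24282 genes in that fit 2124 were called higher and 1457 lower.

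The mural *Spp1* difference was spread unevenly over cells. At least 10 *Spp1* UMIs were found in 138 of 474 and 151 of 522 mutant barcodes, 29.1% and 28.9%, with exact 95% intervals of 25.1 to 33.4% and 25.1 to 33.0%. In controls 1 of 290 and 3 of 300 barcodes reached that count, 0.345% and 1%, with intervals of 0.0087 to 1.91% and 0.207 to 2.89%. These intervals cover counting error only. In mutants the 10% of barcodes highest in *Spp1* carried 72.2 and 74.2% of all mural *Spp1* UMIs. After thinning each cell to 2000 UMIs, *Spp1* was seen in an expected 45.8 and 47.7% of mutant and 12.4 and 12.4% of control mural cells, against 59.5, 64.8, 27.9 and 29% unthinned. Erythroid cells, which should lack the gene, gave 21.6 and 24.2% against 14.9 and 17.1% after the same thinning. Their median depth was 9490 and 9652 UMIs in mutants and 9028 and 9118 in controls, and that of mural cells 6109 and 6438 in mutants and 5439 and 5545 in controls. The control mural share was below that of control erythroid cells and is read as background. Thinned shares depend on the depth chosen. With thinning to 1000 UMIs, over all members and cell types, 117 shares moved by 1 SD or more and 3 did not. The share of free RNA from empty droplets was estimated by the median over markers of other types, which is no ceiling. Free RNA at that share would bring 169 and 196 CPM of *Spp1* to mutant and 111 and 149 CPM to control mural sums. The control *Spp1* level was near or below that estimate and the mutant level above it. For *Ibsp* the estimate was 82.9 and 104 CPM in mutants and 56.5 and 94.8 CPM in controls. The mural sums held 64.0 and 212 CPM of *Ibsp* in mutants and 87.8 and 123 CPM in controls. Mural *Ibsp* was therefore not clearly told apart from free RNA.

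Mural barcodes were also divided by markers of contractile smooth muscle (*Myh11*, *Cnn1* and others) and of pericytes (*Kcnj8*, *Abcc9* and others), a division added after the data were seen. A mural barcode was called contractile if its contractile score exceeded its pericyte score, and pericyte-like otherwise. Pericyte-like barcodes numbered 604 in mutants and 167 in controls, and contractile barcodes 392 and 423. In pericyte-like barcodes *Spp1* was 5613 and 6300 CPM in mutants against 255 and 88.9 CPM in controls, a log2 fold change of 5.22 ± 0.23 (adjusted p 1.6e-10). In contractile barcodes it was 1639 and 780 against 65.2 and 104 CPM, 3.85 ± 0.29 (adjusted p 3.4e-07). The summed *Spp1* level was thus higher in mutants in both parts. In contractile barcodes, however, 12 of 186 and 13 of 206 mutant ones held 10 UMIs or more. Without the highest barcode of each library the contractile level was 1298 and 606 against 62.0 and 71.7 CPM. The difference of the fold changes, 1.51 ± 0.52, did not pass (adjusted p 0.076). At least 10 *Spp1* UMIs were present in 43.8 and 43.7% of mutant pericyte-like barcodes and in 6.45 and 6.31% of mutant contractile barcodes. In pericyte-like barcodes 4 of 4 tested members were called higher (background 18%), and in contractile ones 2 of 3 (background 9.23% higher and 9.12% lower). *Itgav* rose by 1.66 ± 0.18 in pericyte-like and by 0.57 ± 0.17 in contractile barcodes, a difference of 1.09 ± 0.27 that passed (adjusted p 0.016). *Itgb5* rose by 0.81 ± 0.14 in pericyte-like barcodes and did not pass in contractile ones (0.38 ± 0.13, adjusted p 0.060). The difference between the parts, 0.45 ± 0.21, did not pass (adjusted p 0.19). *Cd44* rose in pericyte-like barcodes, from 39.7 and 48.9 to 71.5 and 68.7 CPM, and was 15.98 ± 3.31 CPM in mutant and 24.1 ± 6.99 CPM in control contractile barcodes. Its effect differed between the parts by 1.36 ± 0.36 (adjusted p 0.026). These fits took no account of the clusters given below, of which cluster 16 held 40.5% of mutant and 1.53% of control mural barcodes.

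**Figure D2:**
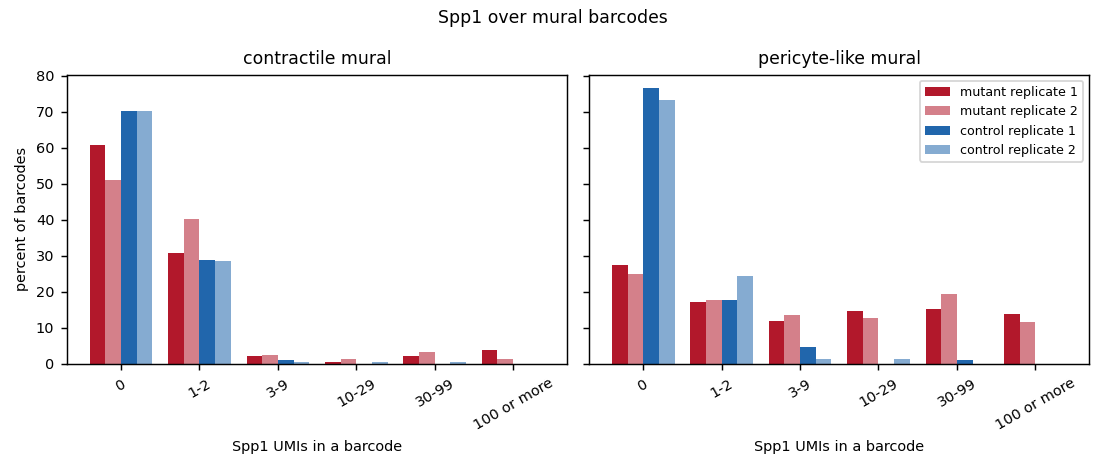
Percent of mural barcodes by their number of *Spp1* UMIs, contractile barcodes left and pericyte-like barcodes right, with a bar per library. Of mutant pericyte-like barcodes 43.8 and 43.7% hold 10 UMIs or more, against 1.18 and 1.22% of control ones.

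Unsupervised clusters, built on the variable genes of all barcodes without integration of the libraries, placed the Spp1-high mural barcodes together. They are given as description with no test, and differences between libraries were not corrected in them. Control mural barcodes lay in cluster 13 (70.7%) and cluster 26 (26.8%). Mutant ones lay in cluster 16 (40.5%), cluster 13 (39.2%) and cluster 26 (14.2%). Within cluster 13, led by the contractile genes *Acta2*, *Myh11* and *Tagln*, *Spp1* was 67.5 CPM in mutant and 69.0 CPM in control mural barcodes. In that shared cluster *Spp1* was thus not higher in mutants, although barcodes high in *Spp1* may have been placed elsewhere for that reason. Within cluster 26 *Spp1* was 104 and 59.8 CPM. In cluster 16 it was 7265 CPM in the 403 mutant mural barcodes and 2138 CPM in the 9 control ones. Mutant mural barcodes of clusters 13 and 26, which held most control mural barcodes, were thus far below those of cluster 16. Among mutant mural barcodes *Itgav* was 65.1 CPM in cluster 13 and 228 CPM in cluster 16, and *Itgb5* 123 and 356 CPM. Control mural barcodes of cluster 13 were close, at 55.8 CPM of *Itgav* and 134 CPM of *Itgb5*, so in that shared cluster *Itgb5* was not higher in mutants. Cluster 16 was 98.3% mutant and its leading genes were *Tmem273*, *Cygb*, *Rgs5*, *Sorcs1* and *Col18a1*, of which only *Rgs5* is a pericyte marker of the gate. Cluster 26 was led by *Rgs5* as well, with the pericyte marker *Higd1b* among its leading genes. The paper proposes that *Myh11*-negative smooth muscle cells, enriched in its mutants, are likely myofibroblasts. Whether cluster 16 holds those cells was not tested. A further 45 mutant mural barcodes lay in cluster 10, led by the matrix metalloproteinases *Mmp9* and *Mmp13*, with *Spp1* at 13802 CPM.

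Markers of other cell types moved with the mural *Spp1* level in part. Of the 5 hypertrophic markers 1, *Col10a1*, was at 10 CPM or more, and the list summed to 242 and 302 CPM in mutants against 41.7 and 34.2 CPM in controls. *Mmp13*, a collagenase of late hypertrophic cartilage and osteogenic stroma, stood at 176 and 192 against 3.07 and 13.9 CPM. The diaphyseal BMSC list summed to 1620 and 1938 against 1193 and 1086 CPM, with 5 or 6 of 8 markers at 10 CPM or more. The metaphyseal BMSC list was lower in mutants, at 102 and 118 against 148 and 137 CPM, as was the osteoblast list, at 145 and 124 against 501 and 414 CPM. The chondrocyte list overlapped (392 and 529 against 351 and 704 CPM). The part of these cells in the *Spp1* result was not tested. With a stricter gate, which leaves out more barcodes with mixed markers, the difference was 4.68 (adjusted p 9.2e-22).

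Osteoblasts, the bone-forming cells, also had more of both ligand transcripts in mutants. *Spp1* was 4122 and 3044 CPM in mutants against 1418 and 1561 CPM in controls, a log2 fold change of 1.26 ± 0.11 (adjusted p 4.7e-06). *Ibsp* was 3421 and 4787 against 2631 and 2910 CPM, 0.56 ± 0.10 (adjusted p 0.0029). The genotypes did not overlap for either gene. *Itgb5* was 37.4 and 42.5 against 28.2 and 29.5 CPM, 0.47 ± 0.12 (adjusted p 0.025). Of 5 members tested 3 were called higher and 0 lower, against backgrounds of 6.21% and 2.87%. *Itgav* (44.0 and 55.9 against 56.6 and 55.0 CPM, adjusted p 0.46) and *Cd44* (52.0 and 42.9 against 44.2 and 44.4 CPM, adjusted p 0.77) overlapped between genotypes and did not pass. *Itgb3*, the β3 partner of αv, was below the filter at 7.56 and 4.07 against 3.37 and 2.86 CPM.

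Osteoblasts were fewer and shallower in mutants, with 159 and 197 barcodes against 770 and 813, and median depths of 9486 and 8855 against 15509 and 16552 UMIs. Their median mitochondrial share was 5.89 and 7.47% against 4.16 and 4.13%. The same 2 clusters held most osteoblasts of both genotypes, and *Spp1* was higher in mutants in each, at 3225 against 1380 CPM in cluster 6 and at 565 against 256 CPM in cluster 15. *Ibsp* was 5014 against 3071 CPM in cluster 6 and 1329 against 1160 CPM in cluster 15. Cluster 29 held 3 mutant osteoblasts at 138283 CPM of *Spp1* and 3 control ones at 39946 CPM. Without these barcodes, an alternative chosen after the data were seen, *Spp1* was 2762 and 2783 CPM in mutants against 1417 and 1540 CPM in controls, a log2 fold change of 0.90 ± 0.057 (adjusted p 5.9e-07). The difference was thus smaller without those 6 barcodes and kept its call, and *Ibsp* was nearly the same (0.55, adjusted p 0.0056). Of 5 members tested 3 were again called higher and 0 lower, beside backgrounds of 5.88% and 2.69%. The osteoblast markers, among them *Bglap* and *Phex*, summed to 126059 and 115529 CPM in mutants and 150399 and 149037 CPM in controls. The hypertrophic list summed to 131 and 98.4 against 42.0 and 46.7 CPM. The part of these differences in the *Spp1* result was not tested. Under the stricter gate the *Spp1* difference was 0.67 (adjusted p 0.0056), and *Itgb5* lost its call there (adjusted p 0.091) and without mutant replicate 2, control replicate 1 or control replicate 2 (adjusted p 0.13 to 0.21), as well as by DESeq2 (adjusted p 0.22).

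Hypertrophic chondrocytes, the last stage of growth plate cartilage before bone replaces it, had slightly less of both ligand transcripts in mutants when taken as a whole. *Spp1* was 5317 and 5935 CPM in mutants against 9012 and 6190 CPM in controls, a log2 fold change of −0.36 ± 0.13 (adjusted p 0.037). *Ibsp* was 7779 and 7124 against 9282 and 8347 CPM, −0.17 ± 0.061 (adjusted p 0.035). *Itgav* was 75.8 and 77.4 against 93.2 and 89.0 CPM, −0.18 ± 0.067 (adjusted p 0.043). The genotypes did not overlap, but the *Spp1* gap between mutant replicate 2 and control replicate 2 was smaller than that between the 2 controls. *Cd44* moved the other way, from 19.5 and 21.6 CPM in controls to 51.5 and 48.9 CPM in mutants, 1.36 ± 0.097 (adjusted p 1.9e-06). *Itgb5* was 87.6 and 93.3 against 99.6 and 90.1 CPM, with overlapping genotypes (adjusted p 0.999). Of 5 members tested 1 was called higher and 3 lower, beside backgrounds of 28.6% and 28.3%. Without control replicate 1 the *Spp1* difference was −0.08 (adjusted p 0.28) and that of *Ibsp* −0.10 (adjusted p 0.15). Without mutant replicate 1 *Spp1* (−0.30, adjusted p 0.068), and without mutant replicate 2 *Ibsp* (−0.10, adjusted p 0.36), also lost the call. *Itgav* lost its call with each library left out (adjusted p 0.061 to 0.18), by DESeq2 (0.21), without the gene filter (0.070), with further barcode filters (0.061) and with the stricter gate (0.11).

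The barcodes of this class lay mostly in different clusters by genotype. Cluster 8 held 76.9% of control and 18.3% of mutant hypertrophic barcodes, while cluster 2, 99.6% mutant and led by *Ptgs2*, *Pde11a*, *Rbp4*, *Col10a1* and *Loxl4*, held 68.3% of the mutant ones. Chondrocyte markers summed to 42906 and 42169 CPM in mutants against 73490 and 79479 CPM in controls. The median depth was 10304 and 9645 UMIs against 17360 and 18105. Barcodes were therefore divided, after the data were seen, at a score of 0.4 on cartilage markers, which left 245 and 227 mutant and 275 and 299 control barcodes above it. Below it were 663 and 679 mutant and 72 and 46 control barcodes.

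In the cartilage-high barcodes bone sialoprotein was higher in mutants, the opposite of the whole class. *Ibsp* was 14428 and 14591 CPM in mutants against 9709 and 8009 CPM in controls, a log2 fold change of 0.79 ± 0.068 (adjusted p 9.0e-06). *Spp1* was 1226 and 1940 against 1979 and 1959 CPM and did not pass (−0.24 ± 0.14, adjusted p 0.25). *Itgav* (0.39, adjusted p 0.0028) and *Cd44* (1.16, adjusted p 2.6e-04) were higher, which made 3 of 5 members tested beside a background of 15.5%. Of these barcodes cluster 8 held 60.4% in mutants and 77.0% in controls, and within it *Ibsp* was 14338 against 11325 CPM. Cluster 12 held 23.1% of mutant ones, at 19238 CPM, and 0.871% of control ones, and cluster 9 held 5.72 and 18.8%, at 5855 against 475 CPM. The difference was therefore smaller within cluster 8 than in these barcodes as a whole. In the cartilage-low barcodes both ligands were lower in mutants, but the genotypes lay in different clusters, with 89.6% of mutant ones in cluster 2 and 76.3% of control ones in cluster 8. The median share of mitochondrial UMIs was 0.491 and 0.545% in mutants against 4.22 and 4.33% in controls, and the median depth 8456 and 7988 against 13105 and 12915 UMIs. In the cartilage-high barcodes the mitochondrial share was 3.83 and 4.03 against 4.16 and 4.22%. The part of these differences in the fold changes was not tested. *Spp1* was 8697 and 8937 against 46501 and 47026 CPM, −2.30 ± 0.050 (adjusted p 4.8e-08), and the 118 control barcodes of this kind stood above all 10 cell types in *Spp1*. *Ibsp* was 2283 and 1512 against 7006 and 11613 CPM, −2.18 ± 0.24 (adjusted p 1.4e-04). *Itgav* fell by 1.16 there (adjusted p 1.0e-04), which made 3 of 6 members lower (background 21.3%). *Cd44*, at 70.4 and 78.9 against 143.6 and 74.2 CPM, did not pass (adjusted p 0.26), and whether its effect differed between the 2 parts was not tested.

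**Figure D3:**
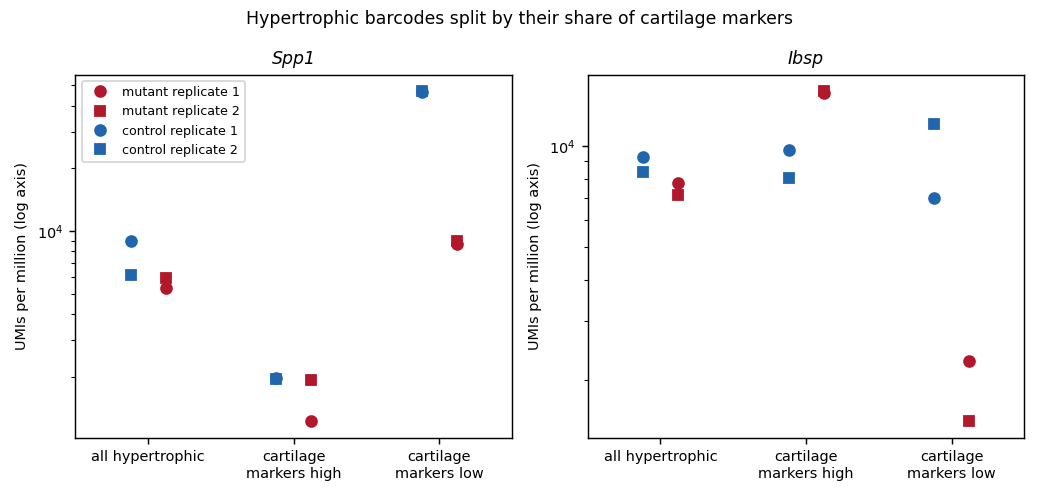
*Spp1* (left) and *Ibsp* (right) in CPM (log axes) for all hypertrophic barcodes and for those with high and low cartilage marker scores. Each point is a library. *Ibsp* of mutants lies above controls in the cartilage-high part (14428 and 14591 against 9709 and 8009) and below them in the cartilage-low part.

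The genotype effects on osteopontin differed between the 3 cell types. In 1 model over the 12 sums of mural cells, osteoblasts and hypertrophic chondrocytes, with library as a block, the *Spp1* effect in mural cells exceeded that in osteoblasts by 4.06 ± 0.23 (adjusted p 5.0e-07). It exceeded that in hypertrophic chondrocytes by 5.62 ± 0.23 (adjusted p 2.5e-08), and the osteoblast effect exceeded the hypertrophic one by 1.56 ± 0.21 (adjusted p 1.7e-04). *Itgav* separated mural cells from osteoblasts by 1.54 ± 0.16 (adjusted p 5.3e-05) and from hypertrophic chondrocytes by 1.53 ± 0.14 (adjusted p 8.2e-06). *Cd44* had its largest effect of the 3 types in hypertrophic chondrocytes, 1.30 ± 0.15 above osteoblasts (adjusted p 6.0e-05) and 0.59 ± 0.20 above mural cells (adjusted p 0.038). The difference from mural cells lost its call with further barcode filters (adjusted p 0.071), the stricter gate (0.15) and cell types from clusters (0.12). *Ibsp* did not separate the types in this fit (mural minus osteoblast −0.19 ± 0.42), but with the stricter gate and with clusters its effect in mural cells was below that in osteoblasts (−1.22, adjusted p 0.0077, and −1.64, adjusted p 0.0037). Under the same settings its osteoblast effect exceeded the hypertrophic one (0.55, adjusted p 0.018, and 1.73, adjusted p 0.0010). Mural *Ibsp* was below the filter in its own fit and entered this one by the other types. Its mural level was not clearly told apart from free RNA. With free RNA subtracted, mural minus osteoblast was −0.089 ± 1.43 for *Ibsp*. Differences were called for 16.5% of genes between mural cells and osteoblasts, 31.9% between mural cells and hypertrophic chondrocytes and 25.7% between the last pair. The 3 differences share the same libraries and are not independent of each other.

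**Figure D4:**
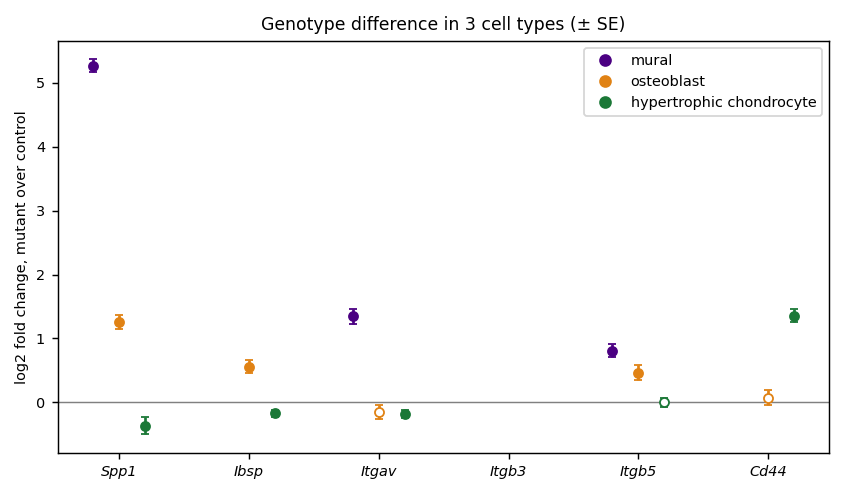
Log2 fold changes of mutants over controls (± SE) from edgeR for the 6 genes in mural cells, osteoblasts and hypertrophic chondrocytes. Filled points passed an adjusted p of 0.05, open points did not, and genes below the filter, such as *Itgb3*, have no point; mural *Spp1* stands at 5.27.

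Stromal cells also differed. Metaphyseal BMSCs had 5 of 6 members called higher (background 17%), but the class lay in different clusters by genotype. Cluster 10 held 47.3% of mutant barcodes, and clusters 11 and 17 held 58.0 and 32.7% of control against 19.8 and 9.65% of mutant barcodes. *Spp1* was higher in mutants in cluster 11 (31819 against 22355 CPM) and lower in cluster 17 (5108 against 6180 CPM). *Ibsp* was 2728 and 5187 CPM in mutants against 2354 and 1830 CPM in controls, 1.00 ± 0.16, and *Spp1* differed by 0.33 ± 0.074 (adjusted p 9.1e-04). *Cd44* (0.91), *Itgb5* (0.51) and *Itgav* (0.26) were higher as well, and *Itgb3*, at 41.5 and 31.4 against 39.3 and 34.5 CPM, overlapped. In diaphyseal BMSCs, the Lepr- and Cxcl12-expressing marrow stroma, the ligands moved apart in the sums over the class. *Spp1* was 5154 and 4638 against 2874 and 2861 CPM (0.84 ± 0.065, adjusted p 6.3e-06), and *Ibsp* was 1869 and 1838 against 2835 and 2746 CPM (−0.52 ± 0.055, adjusted p 4.6e-05). *Itgb5* was 104 and 110.4 against 57.2 and 54.3 CPM, 1.01 ± 0.069, so 2 of 4 members tested were higher (background 24.5%) and 1 lower (background 23.1%). Of the mutant diaphyseal BMSCs 18.7% lay in cluster 10, at 14790 CPM of *Spp1*, whereas in cluster 0 *Spp1* was 1783 CPM in mutant and 2624 CPM in control barcodes. Diaphyseal BMSCs had the highest *Itgav* of the 10 types in controls and mutants (184 to 189 CPM).

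Chondrocytes outside the hypertrophic class had 5 of 5 tested members called higher (background 26.6%), again over different clusters. Cluster 9 held 36.3% of control and 4.59% of mutant barcodes, cluster 12 held 4.93 and 25.9%, and cluster 21 held 18.1 and 4.95%. The largest effect was that of *Ibsp*, from 807 and 907 CPM in controls to 2066 and 2328 CPM in mutants, 1.46 ± 0.067 (adjusted p 1.8e-09). *Spp1* was 1466 and 2103 against 1144 and 1482 CPM, 0.54 ± 0.14, with mutant replicate 1 within the control range. Within clusters its direction varied, with mutants lower in cluster 1 (443 against 734 CPM), cluster 9 (334 against 708 CPM) and cluster 12 (1647 against 3393 CPM) and higher in cluster 4 (1372 against 891 CPM). In fibroblasts 0 of 5 members passed (backgrounds 1.4% higher and 0.743% lower by edgeR, with *Spp1* at an unadjusted p of 0.011 the only one of the 5 under 0.05, and 0 called by DESeq2). *Spp1* stood there at 6670 and 5950 against 4491 and 5745 CPM. Fibroblasts had the highest *Cd44* of the 10 types, at 215 and 249 CPM in mutants and 225 and 188 CPM in controls.

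Endothelial cells, in which *Lats2* was deleted, gave low levels of either ligand. *Spp1* was 830 and 176 CPM in mutants and 60.6 and 190.2 CPM in controls, overlapping. A single barcode of mutant replicate 1 carried 3511 *Spp1* UMIs, and without it that library stood at 163 CPM. The estimate of free RNA in these sums was 242 and 290 CPM in mutants and 162 and 207 CPM in controls, so apart from that barcode the level is read as background. The fit called *Spp1* higher (2.05 ± 0.59, adjusted p 0.0099), and the call was lost without mutant replicate 1 (0.55, adjusted p 0.37), without control replicate 1 (1.45, adjusted p 0.18) and by DESeq2 (adjusted p 0.15). *Itgav* rose from 81.5 and 72.2 to 109.7 and 100.1 CPM (0.51 ± 0.085, adjusted p 3.6e-04), so 2 of 3 members tested were called higher (background 31.5% higher and 31.3% lower). The genotypes lay in different endothelial clusters, with 24.6% of mutant and 5.89% of control barcodes in cluster 22, 7.85 and 25.5% in cluster 19, and 9.45 and 24.5% in cluster 18. *Itgav* was 207 against 69.4 CPM in cluster 22, 138 against 96.8 CPM in cluster 18, 125 against 113 CPM in cluster 19, and 48.8 against 42.9 CPM in cluster 7, which held similar shares of both genotypes (32.5 and 32.3%). *Itgb3*, at 19.2 and 16.8 against 68.4 and 98.7 CPM, and *Itgb5*, at 17.5 and 11.4 against 60.5 and 83.3 CPM, were below the filter and lower in both mutant libraries. After barcodes of low complexity or high mitochondrial or hemoglobin content were also removed, *Itgb3* was 17.9 ± 1.81 CPM in mutants and 21.9 ± 16.0 CPM in controls, and *Itgb5* 14.7 ± 4.23 and 19.4 ± 13.0 CPM. The control excess of both β subunits thus sat in barcodes that those filters leave out.

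Leukocytes were few after depletion, whereas 1225 barcodes were erythroid. In leukocytes (33 to 115 barcodes per library) 0 of 4 members tested were called by edgeR (backgrounds 0.629% higher and 1.05% lower), with *Ibsp* (unadjusted p 0.0043) and *Spp1* (unadjusted p 0.028) under 0.05 before adjustment and 0 called by DESeq2. Mutant replicate 2 stood apart, at 775 CPM of *Ibsp* and 762 CPM of *Spp1*, while mutant replicate 1 lay within the control range for both. A single barcode of mutant replicate 2 carried 256 *Spp1* UMIs, and without it that library stood at 211 CPM, near control replicate 2 (181 CPM). In erythroid cells 2 of 3 members tested were called higher (background 24.1%). That background depended on scaling, with 453 of 5871 genes called higher and 4604 lower by library totals. *Spp1* was 1299 and 900 CPM in mutants against 114 and 193 CPM in controls, 3.55 ± 0.14 (adjusted p 3.9e-29). The mutant libraries had estimates of free RNA of 449 and 704 CPM, below their levels, and the control libraries of 187 and 118 CPM. Without the highest barcode of each, the mutant libraries stood at 855 and 692 CPM, the second below its estimate. Cluster 31 held 24.3% of mutant and 2.51% of control erythroid barcodes, at 1359 against 226 CPM of *Spp1*, and cluster 3 held 16.6 and 49.4%, at 103 against 80.6 CPM. The median mitochondrial share was 2.39 and 2.25% against 8.20 and 7.68%. The highest 10% of mutant erythroid barcodes held 95.7 and 92.6% of these UMIs, and with the further filters on barcodes the difference was 0.41 and lost its call (adjusted p 0.20). *Ibsp*, the other one called (1.15 ± 0.17, adjusted p 7.2e-08), overlapped between genotypes at 175 and 90.8 CPM in mutants against 131 and 66.1 CPM in controls. The estimate of free RNA was 220.1 and 373 CPM in mutants and 95.1 and 74.9 CPM in controls, so the level in mutants is read as background. The call was lost by DESeq2 (adjusted p 0.19), with library totals (adjusted p 0.085) and without the gene filter (adjusted p 0.29), and with the further filters the direction turned (−0.88, adjusted p 0.036).

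Other genes of the pathway were counted by list in mural cells, osteoblasts and hypertrophic chondrocytes, beside a median log2 fold change over all genes tested of −0.0019, −0.0062 and −0.0046. Of all genes tested, 23.7% rose and 24.4% fell in mural cells, 6.21 and 2.87% in osteoblasts and 28.6 and 28.3% in hypertrophic chondrocytes. Of the other ligands of αv integrins, 5 of 7 tested rose and 1 fell in mural cells (median 1.08), 4 of 6 rose in osteoblasts (median 0.42), and 1 of 5 rose and 4 fell in hypertrophic chondrocytes (median −0.48). In mural cells *Tnc* (tenascin C) rose by 1.93 ± 0.14, *Tgfb1*, whose latent form is activated by αv integrins, by 1.49 ± 0.14, and *Fbn1* (fibrillin 1) by 1.47 ± 0.098. *Ltbp1*, which anchors latent TGF-β, fell by 1.49 in mural cells and rose by 0.36 in osteoblasts. Among the integrin adaptors and kinases 0 of 8 rose and 4 fell in mural cells as a whole (median −0.24), among them the caveolin gene *Cav1* at −0.89 ± 0.096. Pericyte-like barcodes were 604 of 996 mural barcodes in mutants and 167 of 590 in controls, and fitted apart each part had 1 of 8 lower, in both cases *Cav1* (−0.42, adjusted p 0.0060, in contractile and −0.80, adjusted p 0.0091, in pericyte-like barcodes). *Zyx* (zyxin) was −0.68 ± 0.11 in the whole, −0.35 in contractile (adjusted p 0.060) and 0.67 in pericyte-like barcodes (adjusted p 0.088). The αv ligands had 2 of 6 higher and 1 lower in contractile barcodes (backgrounds 9.23 and 9.12%), and 6 of 8 higher and 2 lower in pericyte-like ones (backgrounds 18 and 18.7%). Of the integrin adaptors and kinases 0 of 7 passed in osteoblasts by edgeR (median 0.14, 0 also before adjustment). In hypertrophic chondrocytes 4 of 8 of them rose and 2 fell (median 0.18). The other integrin subunits had 2, 1 and 2 genes tested. *Itga8*, the smooth muscle partner of β1, fell by 1.08 in mural cells and by 0.42 in contractile barcodes alone, and *Itgb1* was near 0 there and rose by 0.51 ± 0.067 in hypertrophic chondrocytes.

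The mineral genes were mixed, against the same shares of all genes (23.7 and 24.4%, 6.21 and 2.87%, 28.6 and 28.3%). Of the phosphate, pyrophosphate and mineral list 2 of 4 rose and 2 fell in mural cells (median 0.17), 2 of 5 rose and 1 fell in osteoblasts (median 0.28), and 2 of 8 rose and 4 fell in hypertrophic chondrocytes (median −0.40). The mural median was positive in neither part. In contractile barcodes 1 of 4 rose and 2 fell (median −0.21, backgrounds 9.23 and 9.12%). In pericyte-like ones 2 of 5 rose and 3 fell (median −0.93, backgrounds 18 and 18.7%). *Mgp*, an inhibitor of mineralization, rose by 2.71 ± 0.10 in mural cells, and *Ank*, a transporter that raises extracellular pyrophosphate, by 1.60 ± 0.14. In contractile barcodes alone *Ank* did not pass (0.60, adjusted p 0.17). *Bglap* (osteocalcin), itself an osteoblast marker of the gate, fell by 1.93 in mural cells, where the osteoblast list as a whole was lower in mutants. Mutants also held fewer osteoblasts (356 against 1583 barcodes), and the part of free RNA in the *Bglap* difference was not tested. *Alpl*, the phosphatase that removes pyrophosphate, rose by 0.36 in osteoblasts and fell by 1.39 in hypertrophic chondrocytes. Of the other SIBLING genes and their enzymes 0 were tested in mural cells, 1 of 3 rose in osteoblasts (*Dmp1*, 0.93 ± 0.14, adjusted p 7.5e-04), and 2 of 2 fell in hypertrophic chondrocytes (*Phex*, −1.80, and *Fam20c*, −0.55).

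For the next 2 lists the shares of all genes called higher and lower were again 23.7 and 24.4% in mural cells, 6.21 and 2.87% in osteoblasts and 28.6 and 28.3% in hypertrophic chondrocytes. Of the hyaluronan and CD44 linker genes 0 of 2 passed in mural cells by edgeR, also before adjustment, and 1 of 3 fell in osteoblasts. In hypertrophic chondrocytes 2 of 6 rose and 2 fell, near the shares of all genes there. In hypertrophic chondrocytes, where *Cd44* rose, *Ezr* (ezrin, which links CD44 to actin) rose by 1.71 ± 0.11 and *Msn* (moesin) by 0.38 ± 0.069, while *Cemip*, a hyaluronan-degrading protein, fell by 1.70. Of the osteogenic transcription factors 2 of 3 rose and 1 fell in mural cells, 0 of 7 rose and 1 fell in osteoblasts, and 1 of 6 rose and 4 fell in hypertrophic chondrocytes. In contractile barcodes 0 of 2 passed by edgeR (backgrounds 9.23 and 9.12%). In pericyte-like ones 2 of 5 rose and 2 fell (backgrounds 18 and 18.7%). *Runx2* rose by 1.20 ± 0.25 in mural cells (adjusted p 4.7e-04) and fell by 0.58 in hypertrophic chondrocytes, where *Sp7* (osterix) fell by 1.09. Proteases known to cleave osteopontin (*Mmp3*, *Mmp7*, *Mmp9* and *Mmp12*) were below the filter in all 3 types.

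Across the 40 sums of cell type and library, the genes most like each member were listed by Pearson's r of log2(CPM + 1) among 14253 genes, as a description, since sums of a library share its depth and free RNA. *Spp1* was most like *Srpx2* (r = 0.91), *Timp1* (0.90), *Ctsf* (0.85), *Naaladl2* (0.85) and *Tmem45a* (0.83). Among the members it was most like *Ibsp* (0.73), then *Itgb5* (0.65) and *Itgav* (0.58), with *Cd44* at 0.11 and *Itgb3* at −0.07. *Ibsp* was most like *Srpx* (0.92), *Itgav* like *Cers5* (0.94), *Itgb3* like *Rap1b* (0.80), and *Itgav* and *Itgb5* resembled each other (0.75).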

How the data were processed

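Cells of 4 libraries were prepared with the 10x Chromium 3′ v3 kit. The deposited values were expected counts, UMIs that the authors counted with STARsolo 2.7.10a after cutadapt 3.5 trimming, over exons and introns of GRCm39 with GENCODE M26 plus transgene sequences, with reads of several genes split by estimation. Expected counts were summed per cell type and library and rounded. Barcodes needed 1000 UMIs and 800 genes, a type needed at least 3 of its markers and a leading marker score 1.5 times the next, and hypertrophic cells 2 hypertrophy markers. Genes passing filterByExpr and seen in 20% of cells of either genotype were tested with edgeR 4.0.16 (R 4.3.3; quasi-likelihood, TMM, genotype), with Benjamini-Hochberg adjustment over all genes tested; a call is an adjusted p of 0.05 or less. CPM used all UMIs of a sum. Each SE of an edgeR log2 value was its absolute value divided by the square root of the test's F statistic. That SE rests on dispersion estimated with all genes and is not the spread between the 2 libraries of a genotype. An exact permutation test of 2 against 2 libraries cannot go below p = 0.333, so none is given. The scripts were tested on simulated data. Members, lists and markers were chosen with earlier results of these data known. Genes named beside the 6 were up to 4 per list with the largest called change in the 3 main types, and the genes with the highest correlation to each member; clusters and their leading genes were chosen after their values were seen. Alternatives were DESeq2 1.42.0, library totals, no gene filter, further barcode filters, 2000 UMIs, a stricter gate, clusters, free RNA subtracted, a replicate block and each library left out. The gates used none of the 6 genes, whereas the clusters did not leave them out.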

Additional observations from a re-analysis of the deposited data

Results flagged for a closer look

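The genotype effect differed between cell types by the test of the difference itself for the following values, on the log2 scale, from edgeR with adjustment over all genes. Mural cells exceeded osteoblasts by 4.06 for *Spp1*, 1.54 for *Itgav* and 0.71 for *Cd44* (adjusted p 0.024). Mural cells exceeded hypertrophic chondrocytes by 5.62 for *Spp1*, 1.53 for *Itgav* and 0.81 for *Itgb5*, and stood at −0.59 relative to them for *Cd44*, which lost its call with further barcode filters (adjusted p 0.071), the stricter gate (0.15) and clusters (0.12). Osteoblasts exceeded hypertrophic chondrocytes by 1.56 for *Spp1* and 0.44 for *Itgb5* (adjusted p 0.030, and 0.099 with the stricter gate), and stood at −1.30 relative to them for *Cd44*. Pericyte-like barcodes exceeded contractile ones by 1.09 for *Itgav* and 1.36 for *Cd44*, a comparison added after the data were seen, in which differences were called for 13.4% of genes. The differences share libraries. Those with hypertrophic chondrocytes set classes whose mutant and control barcodes lay mostly in different clusters, and of the mural barcodes cluster 16 held 40.5% in mutants and 1.53% in controls.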

How the results depend on the processing

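Of 666 fold changes and differences of the 6 genes recomputed under the alternatives, 545 kept direction and side of the threshold, 58 lost and 25 gained a call, and 38 changed sign. Mural *Spp1* kept its call under every alternative run, from 4.46 with cell types from clusters to 5.40 without control replicate 1. With free RNA subtracted it was 9.72, where controls approach 0 and the value is no bound. Osteoblast *Spp1* also kept its call, from 0.67 (stricter gate) to 1.48 (without mutant replicate 2). The number of genes called in mural cells (2258) was 1421 with DESeq2 and 3581 without the gene filter. That in osteoblasts (535) was 260 with DESeq2, 1248 without the filter, and 250 to 729 with a library left out, the lowest without control replicate 1 (250) and control replicate 2 (262).

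In hypertrophic chondrocytes the *Spp1* difference lost its call with DESeq2 (−0.36), without the gene filter (−0.39), with the stricter gate (−0.37) and in the cartilage-high barcodes (−0.24), and ranged from −0.60 to −0.079 with a library left out. *Ibsp* lost its call with DESeq2 (−0.17), without the filter (−0.20) and with the stricter gate (−0.072), ranged from −0.25 to −0.10 with a library left out, and reversed in the cartilage-high barcodes (0.79), as did *Itgav* (0.39). *Itgb5* in this class, near 0, was −0.068 with library totals, −0.032 without the filter, −0.0066 with further barcode filters, −6.5e-04 with the stricter gate, −0.17 with clusters, −0.018 with free RNA subtracted, −0.047 and −0.30 in the cartilage-high and cartilage-low barcodes, and −0.060 to 0.065 with a library left out. *Cd44* was −0.35 in the cartilage-low barcodes.

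Other values that changed sign were *Cd44* in osteoblasts (−0.013 without the filter, −0.32 stricter gate, −0.18 clusters, −0.21 without cluster 29, −0.066 to 0.24 with a library left out), *Itgb3* in metaphyseal BMSCs (−0.032 with library totals, −0.033 without the filter, −0.15 to 0.24), *Itgav* in diaphyseal BMSCs (−0.035 stricter gate), *Ibsp* in fibroblasts (0.79 stricter gate, 1.72 clusters, −0.23 to 0.059), *Itgav* in fibroblasts (0.24 clusters, −0.22 to 0.011), *Ibsp* in endothelial cells (−1.72 to 1.15), *Spp1* in leukocytes (−0.72 clusters, −0.49 to 2.51), *Ibsp* and *Itgav* in leukocytes (−0.061 to 3.76 and −0.079 clusters, −0.075 to 0.68) and *Ibsp* in erythroid cells (−0.88 with further barcode filters). Between types, the *Ibsp* difference of mural cells from hypertrophic chondrocytes was −0.67 with the stricter gate, and the *Itgav* difference of osteoblasts from hypertrophic chondrocytes 0.10 with library totals and 0.46 with clusters. *Ibsp* gained calls for mural cells minus osteoblasts (−1.22 stricter gate, −1.64 clusters) and osteoblasts minus hypertrophic chondrocytes (0.55 and 1.73). The cause was not tested, and the mural *Ibsp* level was not clearly told apart from free RNA.

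With the replicate number as a block, *Spp1* was 5.27 in mural cells, 1.24 in osteoblasts and −0.34 in hypertrophic chondrocytes, and *Itgav* in hypertrophic chondrocytes lost its call (adjusted p 0.079). Deviations of same-numbered libraries had correlations of −0.029, 0.0028 and −0.020 over genes in the 3 types. Each compares 1 difference between 2 libraries with 1 other, so it cannot decide whether the numbers pair them. Of the 120 levels, 102 moved by less than 1 SD with further barcode filters. A left-out library leaves 1 in an arm, whose spread was assumed to be like that of the other arm. With 2 libraries per genotype, the scarce transcript *Itgb3* was below the filter in most cell types, and the part of depth in this was not tested.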

Other observations

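Some clusters held high levels of these genes, given here as values of all their barcodes, with no test. Barcodes without a type as a whole stood at 6483 CPM of *Spp1* in mutants and 3306 CPM in controls. Cluster 29, led by the osteocyte genes *Mepe* and *Dmp1*, held 225 barcodes, 90.7% of them mutant, with *Spp1* at 25542 CPM, *Ibsp* at 1649 CPM and *Cd44* at 241 CPM. Cluster 10, led by *Mmp9*, *Mmp13* and *Tnfsf11*, held 957 barcodes, 424 of them without a type and 93.6% mutant, with *Spp1* at 17482 CPM and *Itgav* at 271 CPM. Cluster 11, led by *Nlgn1* and *Hs3st5* and mostly metaphyseal BMSCs (655 of 875), held 13.4% mutant barcodes and *Spp1* at 24244 CPM.

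The receptor subunit β3 was high in clusters mostly without a type. Cluster 37, led by the platelet genes *Pf4*, *Ppbp* and *Gp9*, held 88 barcodes, 23.9% of them mutant, with *Itgb3* at 3058 CPM. Cluster 32, led by *Slc6a4*, *Cd226* and *Itga6*, held 131 barcodes, 17.6% of them mutant, with *Itgb3* at 1744 CPM, *Itgb5* at 1219 CPM and *Cd44* at 756 CPM. Among barcodes with no type as a whole, *Itgb3* stood at 48.5 and 93.4 CPM in mutants and 405 and 328 CPM in controls, and with further barcode filters at 22.9 and 44.5 CPM in mutants and 152 and 79.1 CPM in controls. No marker list of megakaryocytes was fixed, so these clusters stay unnamed.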
